A study of Mus musculus with 10 samples.

Results

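The 5 KPG1 lung tumors of the series were described on their own, for how far tumors of a single genotype differed from each other. They are 5 of its 10 RNA-seq libraries and were taken by their sample labels, with no use of a measured value. KPG1 mice (strain C57BL/6, all male here) are labelled homozygous fl/fl for Glut1, whose gene is Slc2a1, and carry engineered tumor-starting alleles that are not reported here. Lung tumors were started with Ad5-SPC-Cre, an adenovirus whose Cre recombinase is driven by the promoter of surfactant protein C, and were collected 18 weeks and 6 days later. They were dissociated and depleted of cells bearing the leukocyte marker CD45, so each library is 1 CD45-negative fraction. Whether the 5 fractions came from 5 mice is not given in the sources used here, nor is the age of the mice. KPG1 1 to KPG1 5 carry the sample numbers 10, 1, 4, 5 and 9 in the labels.

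Lung adenocarcinoma that starts in alveolar type 2 (AT2) cells keeps much of the surfactant programme of its origin. As such tumors advance, some cells lose this identity and switch on genes of the gut and the airway, and lesions of a single mouse can stand at different stages. Dissociated tumor also holds endothelial cells and fibroblasts that CD45 depletion does not remove. In a bulk library, more cells of a type and more RNA per cell cannot be told apart.

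Depth ranged from 35057912 to 46367400 counts, and between 20886 and 21547 genes had a count. The epithelial marker Epcam lay between 8.57 and 8.97 on the log2 scale of the normalized counts, and the lung lineage factor Nkx2-1 between 8.05 and 8.48. Ptprc, the gene of CD45, lay between 2.44 and 3.45. The 4 Y-linked genes on the marker list were expressed in all 5 libraries, as the male label implies. A level is given here as log2 CPM (counts scaled to a common library size) with normalization factors, so 1 unit is a 2-fold difference, and SD is the standard deviation of these log2 values over the 5 tumors.

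The targeted gene, Slc2a1, was at 5.60, 6.07, 5.34, 5.68 and 5.47 in KPG1 1 to KPG1 5 (SD 0.28). Gene-level counts do not separate floxed from other exons, so this level does not measure recombination. Slc2a3, which encodes the high-affinity transporter Glut3, was at 7.54, 6.98, 8.35, 6.38 and 6.94 (SD 0.75), highest in KPG1 3. Among the 10540 genes with a mean of at least 3, the median SD was 0.201, and 95% of them had an SD under 0.624. The SD of Slc2a1 was above this median and that of Slc2a3 outside the range that holds 95% of genes. Of the 15 listed sugar transporter genes, 5 had a mean of at least 3, and none of these 5 had an SD of 1 or more (1.39% of all genes had). The 37 genes kept from the hypoxia and glycolysis list had a median SD of 0.245, and 15 of them were highest in KPG1 2 (19.9% of all genes were). After Slc2a3, the glycolytic genes Gapdh (6.72, 5.65, 6.85, 6.53 and 5.49) and Eno1 (7.83, 7.78, 6.97, 6.52 and 6.65) spread most, and both have near-identical copies in the annotation that can share reads.

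The first 3 genes by abundance per transcript length encode surfactant proteins. Sftpc, which encodes surfactant protein C, led with a length-scaled level, in TPM (reads per transcript length, scaled to a common total), of 123868, 56213, 69726, 77258 and 73803 in KPG1 1 to KPG1 5, a mean of 80174 ± 25698 (SD, n = 5). KPG1 1 was the highest and the other 4 lay close together. Sftpb followed at 31012 ± 3627 and Sftpa1 at 10702 ± 2142 (SD, n = 5). Lyz2 (lysozyme), Clu, the lung chemokine Cxcl15, the elongation factor Eef1a1, the actin-binding Tmsb4x, Cd74, the phosphate transporter Slc34a2, Chi3l1, the pseudogene Tpt1-ps3, the chaperone Hsp90ab1, Eef2 and Sftpd completed the first 15. Together these 15 held between 15.2% and 23.7% of the length-scaled total, most in KPG1 1. Of the 15, Lyz2 and Chi3l1 had the widest spread on the log2 scale (SD 0.67 and 0.71). Chi3l1, an inflammation-linked secreted protein, had a length-scaled level of 6177 in KPG1 2 and 1836 in KPG1 3. Tmsb4x stayed between 4713 and 5516.

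Most genes differed little between tumors, and a small set differed a great deal. An SD of at least 1 was found for 147 of 10540 genes (1.39%), and 121 of these were protein-coding. The smallest SD inside that limit was 1.00 and the largest outside was 0.99. Counting error had a median SD of 0.035, so 95.2% of the genes spread by more than 2 times what counting gave. Without KPG1 1, the number of genes with an SD of at least 1 was 90. With a single library per tumor, biological and technical spread cannot be told apart, and no test was possible within a single group.

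**Figure D1:**
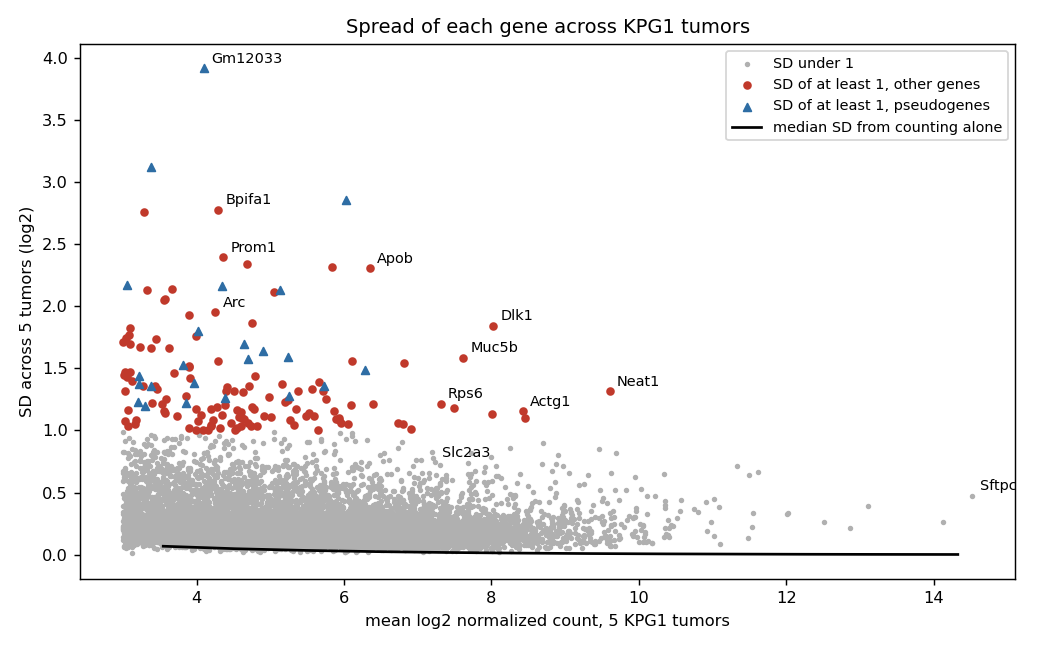
Each point is a gene, with its mean log2 normalized count over the 5 KPG1 tumors on the x axis and the SD of these 5 log2 values on the y axis. Red points and blue triangles are the 147 genes with an SD of at least 1, and the black line is the median SD that counting alone gives, which stays near the bottom of the plot.

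KPG1 1 stood furthest from the others. A difference of 2-fold or more separated it from KPG1 4 for 730 genes (6.93%), the most of the 10 pairs, and from KPG1 2, KPG1 5 and KPG1 3 for 514, 613 and 621 genes. The 6 pairs among the other 4 tumors gave between 211 (KPG1 3 and KPG1 4, 2.00%) and 385 genes (KPG1 3 and KPG1 5). In a principal component analysis of these genes, the first component held 46.4% of the variance and placed KPG1 1 at 40.7 and the others between -17.0 and -1.22. The second held 22.5% and set KPG1 5 (25.9) against KPG1 3 (-18.3), the third 18.4% with KPG1 2 at 25.2, and the fourth 12.7% with KPG1 4 at 19.7. A different tumor lay at the extreme of each of these 4 components.

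Each gene was also sorted by the tumors on either side of its largest gap. The most frequent pattern among the 147 genes was a low value in KPG1 1 alone (47 genes, 32.0%, against 15.2% of all 10540 genes). A high value in KPG1 1 and KPG1 5 was found for 8 genes (5.44% against 1.91%), a high value in KPG1 1 and KPG1 2 for 11 (7.48% against 4.10%), and a low value in KPG1 4 alone for 8 (5.44% against 1.74%). A high value in KPG1 1 alone was less frequent among the 147 than among all genes (5.44% against 11.8%).

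**Figure D2:**
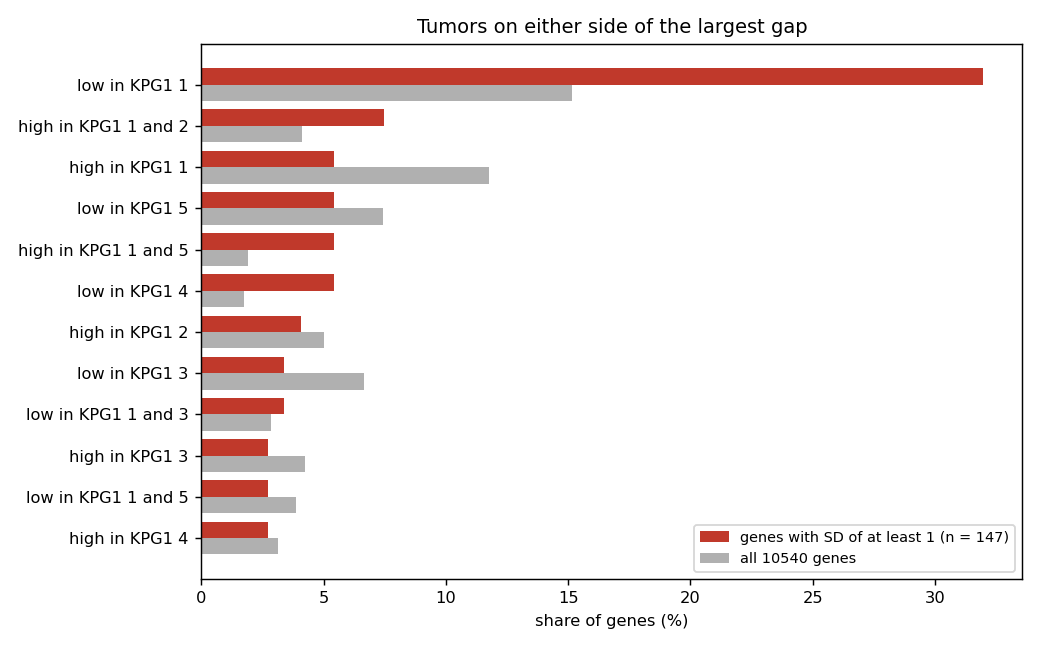
Bars give the share of genes (x axis, %) whose largest gap separates the tumors named on the y axis from the rest, for the 147 genes with an SD of at least 1 (red) and for all 10540 genes (gray). The 12 most frequent patterns are drawn, led by low in KPG1 1 (32.0% against 15.2%).

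The genes low in KPG1 1 included the most variable of the airway and gut genes. Bpifa1, a secreted defense protein of the upper airway (chr2:154142880-154149219, mm10), was at -0.34 in KPG1 1 and at 6.07, 6.09, 5.93 and 3.70 in KPG1 2 to KPG1 5 (SD 2.78). Scgb3a2, a secretoglobin of airway club cells, was at -0.76, 6.32, 5.38, 2.73 and 2.79 (SD 2.76). For both genes KPG1 1 fell below every other tumor by over 3 log2 units. Muc5b, a gel-forming airway mucin, was at 5.15 in KPG1 1 and between 6.88 and 8.77 in the others. The classical club cell marker Scgb1a1 behaved differently, at 2.90 in KPG1 1, 2.84 in KPG1 4 and 5.12 to 7.11 in the other 3.

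Not every airway gene was lowest in KPG1 1. Of the 24 genes on the club and secretory airway list, 14 were kept and 7 had an SD of at least 1 (1.39% of all genes had). The median SD of the 14 was 0.99, against 0.201 over all genes. Their score, the mean difference of a list's genes from their own means, was -0.84, 1.05, -0.18, -0.29 and 0.27 in KPG1 1 to KPG1 5. The summed level of the 24 listed genes was instead lowest in KPG1 3, at 1584, 2205, 975, 1293 and 1559 CPM. Only 4 of the 14 were lowest in KPG1 1 (30.9% of all genes were) and 6 were highest in KPG1 2 (19.9% of all genes were). Cbr2, a carbonyl reductase of lung epithelium, went the other way and was at 7.67, 6.78, 6.06, 5.40 and 4.56, highest in KPG1 1. Agr2, a protein disulfide isomerase of mucus-secreting cells, was high in KPG1 2 (5.89) and KPG1 5 (5.56) and between 1.59 and 2.95 in the other 3. The secretoglobin Scgb3a1 lay between 1.64 (KPG1 4) and 4.36 (KPG1 2).

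The gut lineage genes gave the lowest score of any list in KPG1 1. Of 33 listed genes, 21 were kept and 4 had an SD of at least 1 (1.39% of all genes had). Of the 21, 15 were lowest in KPG1 1 (30.9% of all genes were). The score was -1.06, 0.41, 0.08, 0.02 and 0.55. The summed level of the 33 listed genes was instead lowest in KPG1 3, at 2650, 4744, 2596, 2734 and 3641 CPM. Prom1, which encodes the membrane protein CD133, was at 0.14, 5.21, 4.84, 5.87 and 5.74 (SD 2.39), from 49 counts in KPG1 1 against 1266 to 2087 in the others. Apob, the apolipoprotein of liver and gut lipoproteins (chr12:7977648-8016835), was at 2.59, 8.34, 7.91, 5.85 and 7.07 (SD 2.31). Dmbt1, a mucosal scavenger receptor, was at 1.56 in KPG1 1 and 3.34 to 5.15 in the others. Lower spread was found for Hnf4a, a transcription factor of gut and liver, at 6.20, 6.96, 7.12, 7.21 and 7.34 (SD 0.45), which was also lowest in KPG1 1. Vil1, an actin-bundling protein of the brush border, was at 4.81 in KPG1 1 and between 5.90 and 7.09 in the others.

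Several other genes with this pattern belong to neither list. Dlk1, an imprinted gene of a Notch-like membrane protein (chr12:109452823-109463336), was at 4.77, 9.33, 8.58, 8.79 and 8.66 (SD 1.84), so all 4 other tumors lay well above KPG1 1. Ttr, the thyroid hormone carrier transthyretin, was at 0.61, 3.43, 5.50, 2.71 and 2.98. The calcium release channel Ryr3 was at -0.04, 4.63, 2.67, 4.03 and 5.36. Tmc5 (0.53), the glucuronosyltransferase Ugt2b34 (0.02), the opsin Opn3 (1.12) and the copine Cpne4 (0.48) were low in KPG1 1 and at 2.92 or more in every other tumor. The cystine transporter Slc7a11, which supplies glutathione synthesis, was at 2.52, 4.83, 3.87, 4.70 and 5.07. Hmga2, a chromatin protein associated with advanced tumors of this kind, had a mean of 2.49, below the limit, and was at 0.81, 2.10, 2.17, 3.01 and 4.38. Hmga2 was lowest in KPG1 1 and highest in KPG1 5, and was chosen after its values were seen. The list of tumor progression and mesenchymal genes did not follow it, with scores of 0.17, 0.02, -0.19, -0.03 and 0.04. Of its 33 genes kept, 13 were highest in KPG1 1 (25.6% of all genes were) and 6 lowest there (30.9% of all genes were).

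**Figure D3:**
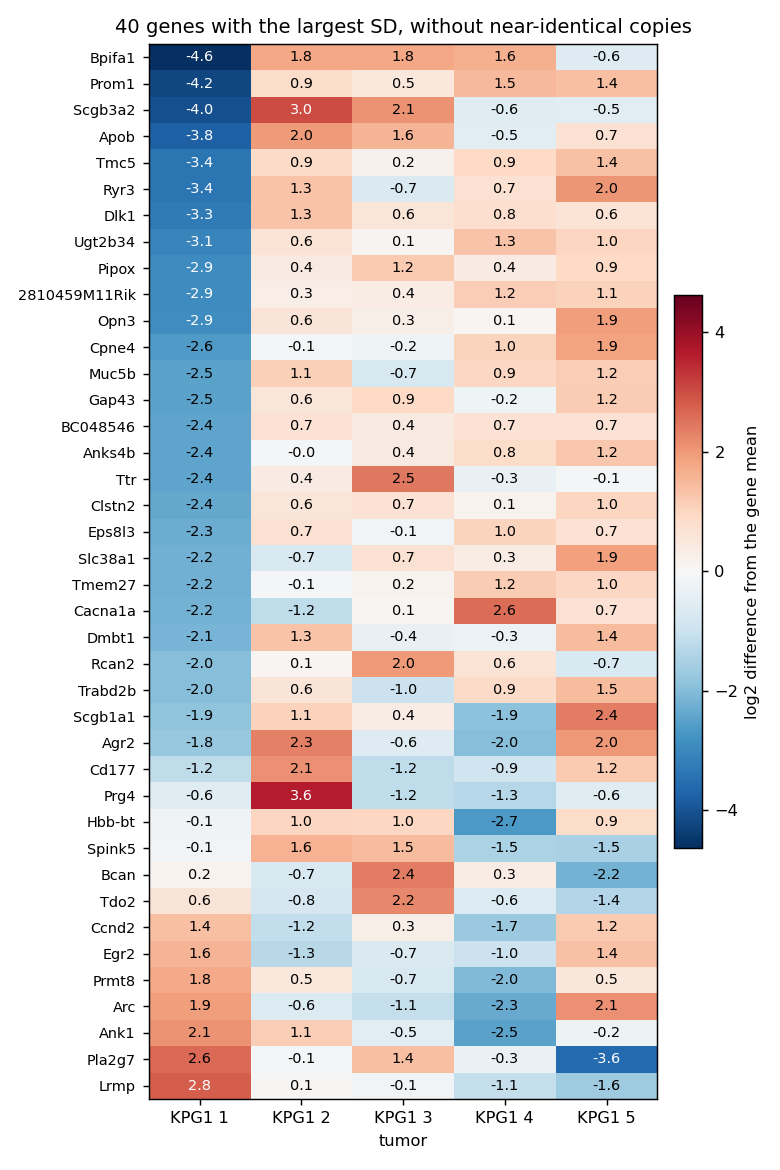
Rows are the 40 genes with the largest SD among those that are not pseudogenes and have no near-identical copy, columns are the 5 tumors, and color and number give the log2 difference from the gene's mean. Of the 40 genes, 25 were lowest in KPG1 1, with differences down to -4.6, and 13 were highest in KPG1 5 (30.9% and 16.4% of all genes were).

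Most endothelial and matrix genes were highest in KPG1 1. Of the 26 endothelial genes kept, 25 were highest in KPG1 1 (25.6% of all genes were) and 25 were lowest in KPG1 4 (11.1% of all genes were). Vwf, the clotting factor stored in endothelial cells, was at 8.76, 7.68, 7.42, 6.71 and 7.83. Pecam1, an adhesion molecule of endothelial junctions, was at 8.29, 7.33, 7.14, 6.61 and 7.30. The summed level of the 30 listed endothelial genes was 3007, 1605, 1489, 1064 and 1585 CPM, and none of the 30 was at 0 in all 5 tumors. The exception was Car4, a carbonic anhydrase, which was at 3.38, 2.98, 4.51, 4.91 and 3.01 and so was highest in KPG1 4. Of 19 fibroblast and matrix genes kept, 14 were highest in KPG1 1, and the list's score was 0.56 there and between -0.18 and -0.07 in the others. The collagen gene Col6a1 was at 7.67, 6.03, 5.91, 5.01 and 5.02. Bgn, the matrix proteoglycan biglycan, was instead highest in KPG1 2 (10.63) and KPG1 4 (10.24). The summed level of the 36 listed fibroblast and matrix genes was therefore no higher in KPG1 1 than in KPG1 2, at 2568, 2642, 1437, 2261 and 1664 CPM. For smooth muscle and pericyte genes 4 of 9 were highest in KPG1 1. How far these cells contributed to the other differences of KPG1 1 was not tested.

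Most alveolar genes were highest in KPG1 1 as well. All 25 AT2 genes were kept. Of these, 16 were highest in KPG1 1 (25.6% of all genes were) and 12 lowest in KPG1 3 (21.4% of all genes were). Lyz1, with the largest SD of the list (2.32), was instead at 3.81 in KPG1 1 and highest in KPG1 2 (8.47). Il33 and Egfl6 were the 2 AT2 genes lowest in KPG1 1 (30.9% of all genes were). Napsa, the protease that matures surfactant protein B, was at 10.50, 10.19, 8.67, 8.68 and 9.25. Hc, complement factor C5, was at 9.72, 8.43, 9.58, 9.02 and 8.06. Scd1, a fatty acid desaturase, was highest in KPG1 1 (12.09) and lowest in KPG1 5 (10.45). Of 18 alveolar type 1 genes kept, 11 were highest in KPG1 1 and none in KPG1 5 (25.6% and 16.4% of all genes were). Rtkn2, with an SD of 0.90, was highest in KPG1 3 (5.63, against 4.31 in KPG1 1). Spock2 (4.66, 3.04, 3.66, 3.55 and 2.03) and the basement membrane collagen gene Col4a3 (7.29, 5.68, 6.87, 6.35 and 5.98) were highest in KPG1 1.

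Immediate early genes, which are switched on within minutes by growth factors or stress, were high in KPG1 1 and KPG1 5. For 16 of the 28 kept, these were the 2 highest tumors, which was so for 9.18% of all genes. The score was 0.47, -0.23, -0.10, -0.46 and 0.33. Egr2, a zinc finger factor, was at 6.27, 3.42, 4.05, 3.72 and 6.07 (SD 1.36). Atf3, a stress-induced factor, was at 9.46, 7.38, 7.37, 6.87 and 8.96 (SD 1.13). In both, KPG1 1 and KPG1 5 lay above the other 3 tumors with a gap of over 1.5 log2 units. Klf2 (7.22, 5.25, 4.91, 4.44 and 6.97) and Cyr61, a secreted target of YAP (8.88, 6.42, 6.86, 6.67 and 8.67), had the same 2 tumors on top. Nr4a2 ran against the list, at 3.53 in KPG1 1 and 5.03 in KPG1 2.

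Outside the list, Arc, best known as a synaptic immediate early gene, had the widest spread of this pattern, at 6.20, 3.62, 3.14, 1.94 and 6.36 (SD 1.95). Dusp5, a nuclear phosphatase of ERK, was at 6.87, 4.72, 4.44, 5.17 and 7.35. Neat1, the long noncoding RNA that builds nuclear paraspeckles (chr19:5824708-5845478), was at 11.23, 8.53, 8.53, 8.90 and 10.81, or 108008 and 70096 counts in KPG1 1 and KPG1 5 against 14285 to 16788 in the others. Malat1, its neighbor and also a nuclear RNA, did not follow (10.05, 10.57, 10.04, 9.40 and 10.53). KPG1 1 and KPG1 5 carry the sample numbers 10 and 9. What these numbers record is not given, and their part in the pattern was not tested.

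Promoter sequence is shown for the genes whose largest gap set KPG1 1 and KPG1 5 above the rest, since they moved together. Of these 8 genes, 4 had a promoter in the RefSeq table used (GRCm38.p6). The 250 bases before the start site are printed 5′ to 3′ on the gene's strand, and capitals mark the TGACG core of the cAMP response element on either strand and the CArG box, the site read by serum response factor. Egr2 has 5 windows in the table, and the one shown holds both motifs. Of the other 4, one holds neither motif and one holds a CArG box without TGACG. A gene was counted where any of its windows held the motif.
Atf3, chr1:191183334-191183583, minus strand: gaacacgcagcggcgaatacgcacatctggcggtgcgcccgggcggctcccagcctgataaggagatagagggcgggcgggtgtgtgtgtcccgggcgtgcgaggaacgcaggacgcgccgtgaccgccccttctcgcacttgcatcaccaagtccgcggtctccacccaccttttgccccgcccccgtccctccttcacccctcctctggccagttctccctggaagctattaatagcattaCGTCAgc
Dusp5, chr19:53528895-53529144, plus strand: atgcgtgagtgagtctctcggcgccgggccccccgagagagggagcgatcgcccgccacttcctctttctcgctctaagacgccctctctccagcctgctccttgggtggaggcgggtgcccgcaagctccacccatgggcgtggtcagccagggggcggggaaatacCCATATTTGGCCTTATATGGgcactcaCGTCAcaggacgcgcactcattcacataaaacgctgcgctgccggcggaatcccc
Egr2, chr10:67537619-67537868, plus strand: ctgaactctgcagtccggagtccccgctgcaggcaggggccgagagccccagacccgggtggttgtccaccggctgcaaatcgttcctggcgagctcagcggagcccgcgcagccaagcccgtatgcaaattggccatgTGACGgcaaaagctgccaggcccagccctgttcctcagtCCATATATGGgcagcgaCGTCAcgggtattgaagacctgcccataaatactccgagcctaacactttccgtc
Klf2, chr8:72318812-72319061, plus strand: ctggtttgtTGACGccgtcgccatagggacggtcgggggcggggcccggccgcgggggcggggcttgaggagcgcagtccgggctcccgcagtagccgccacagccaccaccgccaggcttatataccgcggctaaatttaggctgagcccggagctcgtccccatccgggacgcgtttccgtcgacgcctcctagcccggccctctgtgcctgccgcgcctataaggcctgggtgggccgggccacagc

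Each of the 4 genes held TGACG in at least 1 window, which 19.8% of the 27025 genes of the table did. The CArG box was found in Dusp5 and Egr2, that is 2 of 4 genes against 1.62% of the table. In Dusp5, 2 CArG boxes stood side by side, and the one nearer to the start lay at bases -72 to -63 with TGACG at -55 to -51. The Egr2 window shown held both at these same positions and a further TGACG at -111 to -107. In other Egr2 windows holding it, this CArG box lay at -73 to -64 or at -133 to -124. The match in position to Dusp5 therefore depends on the start site taken. The full element TGACGTCA and the AP-1 site TGANTCA were in none of the 4 (1.77% and 7.82% of the table). A match describes these letters only.

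**Figure D4:**
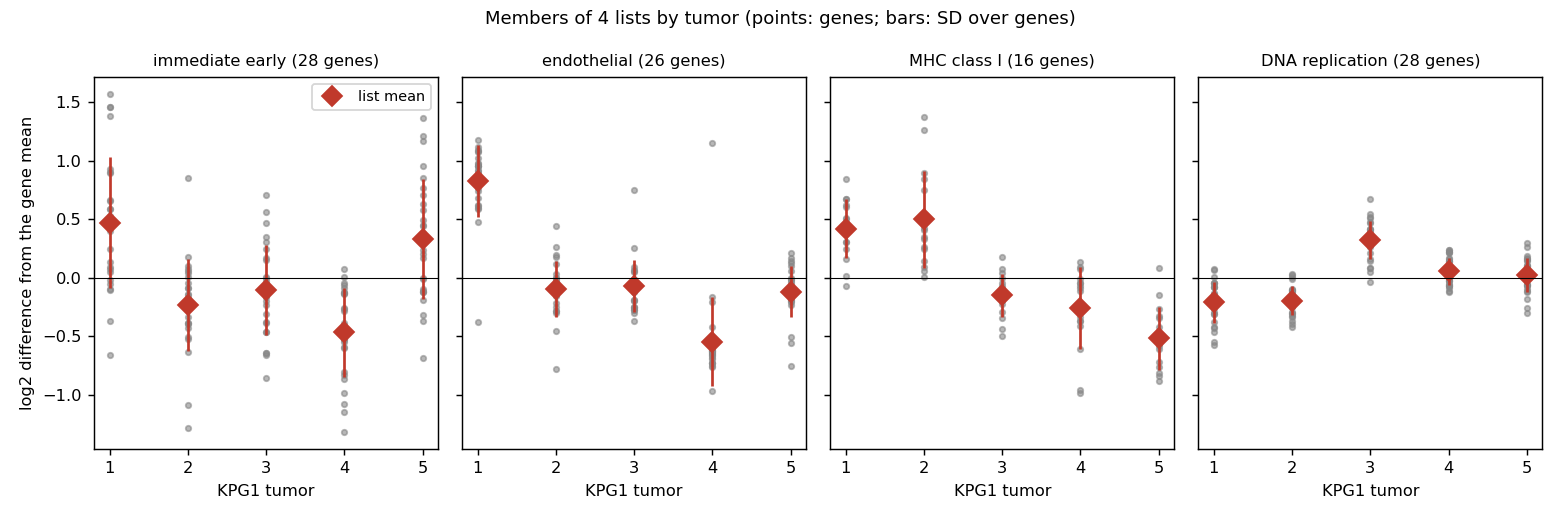
For 4 gene lists, gray points are the genes kept and give the log2 difference from the gene's own mean (y axis) in each KPG1 tumor (x axis); red diamonds are list means and bars the SD over genes. Immediate early means are highest in KPG1 1 (0.47) and KPG1 5 (0.33), endothelial in KPG1 1 (0.82), MHC class I in KPG1 1 and KPG1 2 (0.42 and 0.50) and DNA replication in KPG1 3 (0.32).

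Antigen presentation followed another division, with KPG1 1 and KPG1 2 above the other 3. These were the 2 highest tumors for 13 of 16 MHC class I genes kept (16.3% of all genes), and 10 of the 16 were lowest in KPG1 5 (21.7% of all genes). H2-K1, a classical class I heavy chain, was at 9.55, 9.78, 8.44, 8.46 and 8.16. Its partner B2m was at 8.56, 8.94, 7.90, 7.48 and 7.57. Neither gene overlapped between these 2 tumors and the other 3. The immunoproteasome subunit Psmb9 was at 4.20, 3.78, 3.29, 2.99 and 2.51. H2-Q6 (4.71, 5.46, 3.96, 3.11 and 3.21) belongs to a family of similar genes that may share reads. Of 21 interferon response genes kept, 13 were highest in KPG1 1 and 15 lowest in KPG1 5 (25.6% and 21.7% of all genes were). None had an SD of 1 or more (1.39% of all genes had). Irf1, an interferon-induced factor, was at 6.77, 5.92, 5.56, 5.54 and 5.81.

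Acute phase genes shared the pair of tumors on top, led by KPG1 2. Of 14 kept, 8 were highest in KPG1 2 (19.9% of all genes were). KPG1 1 and KPG1 2 were the top tumors for 8 of the 14 (16.3% of all genes). Complement C3 was at 9.24, 9.89, 7.21, 7.70 and 8.28 (SD 1.10), and haptoglobin, Hp, at 9.76, 9.56, 8.16, 7.72 and 8.33. Lcn2, a siderophore-binding defense protein, was at 10.52, 11.40, 9.84, 9.90 and 10.03. Ceruloplasmin, Cp, was instead high in KPG1 2 (6.84) and KPG1 5 (6.59). Among the 11 chemokine genes kept, 4 had an SD of at least 1 (1.39% of all genes had), in different orders. The neutrophil attractant Cxcl5 was at 1.38 in KPG1 1 and 3.13 to 4.84 in the others, while Cxcl12, made largely by stroma, was at 7.43, 5.84, 5.09, 4.69 and 6.43. Cxcl17 was at 6.51 and 6.94 in KPG1 1 and KPG1 2 and at 5.42 or less in the others.

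Most cell cycle genes were highest in KPG1 3. Of 28 DNA replication genes kept, 25 were highest in KPG1 3 (20.0% of all genes were), 12 lowest in KPG1 1 and 14 lowest in KPG1 2 (14.9% of all genes were). Mcm2, a subunit of the replicative helicase, was at 5.39, 5.57, 6.35, 5.98 and 5.75. Of 34 mitosis genes kept, 21 were highest in KPG1 3, 11 in KPG1 5 (16.4% of all genes), and 26 were lowest in KPG1 2. Cyclin B1, Ccnb1, was at 3.77, 3.25, 4.47, 4.24 and 4.23, and the checkpoint kinase gene Bub1 at 3.59, 3.69, 4.82, 4.45 and 4.24. No gene of either list had an SD of 1 or more (1.39% of all genes had). The median SD was 0.252 for replication and 0.361 for mitosis, against 0.201 over all genes. The scores spanned 0.53 for replication and 0.73 for mitosis. Cyclin D2, Ccnd2, on neither list, was at 7.04, 4.50, 5.94, 3.94 and 6.86 (SD 1.39).

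Single tumors had genes of their own. Prg4, which encodes the lubricant lubricin, was at 7.20 in KPG1 2 and between 2.25 and 3.03 elsewhere. KPG1 3 was highest for Bcan, a proteoglycan best known from brain, at 5.76 against 1.18 to 3.73, and for the tryptophan-degrading enzyme gene Tdo2, at 6.12 against 2.55 to 4.49. Cacna1a, a neuronal calcium channel subunit, was at 0.92, 1.93, 3.20, 5.69 and 3.76, highest in KPG1 4. In KPG1 4 the globin gene Hbb-bt was at 3.44 against 5.95 to 7.09, whereas its neighbor Hbb-bs was highest in KPG1 4 and between 5.83 and 6.95 in the others. Ank1, an ankyrin of the red cell membrane skeleton, was at 0.96 in KPG1 4 and 5.52 in KPG1 1. KPG1 5 was highest for the matrix proteoglycan gene Vcan, at 7.62 against 4.50 to 6.00, and the alcohol dehydrogenase gene Adh1, at 6.23 against 3.36 to 4.10. Pla2g7, a phospholipase that degrades platelet-activating factor, was at 1.08 in KPG1 5 and between 4.39 and 7.30 elsewhere. Lrmp, named for its lymphoid expression, was at 5.80 in KPG1 1 and between 1.36 and 3.07 elsewhere. Pf4, the platelet chemokine, was at 3.13 in KPG1 1 and between 5.42 and 6.58 elsewhere.

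Macrophage marker genes differed between tumors. Of 12 macrophage and monocyte genes kept, 5 were highest in KPG1 3 (20.0% of all genes were). In KPG1 1 and KPG1 2, 3 genes each were highest (25.6% and 19.9% of all genes were). The receptor gene Csf1r was at 3.30, 2.79, 4.14, 3.14 and 2.87 and Itgax at 3.10, 2.70, 4.04, 3.11 and 2.30, and Ptprc was also highest in KPG1 3 (3.45, against 3.35 in KPG1 1). Ly6c2, also expressed by endothelial cells, was at 7.13, 6.15, 4.79, 4.81 and 4.53. The summed level of the 32 listed macrophage and monocyte genes was 6984, 4234, 2798, 2538 and 3931 CPM, and the list includes Lyz2, which AT2 cells also express. Of 20 neutrophil genes, 4 were kept, among them Cd177, a neutrophil surface protein, at 5.63, 8.92, 5.62, 5.87 and 8.01 (SD 1.55). The rest fell below the limit on the mean and came in different orders. Among them were S100a8 (47, 29, 31, 7 and 42 counts), Csf3r (81, 30, 39, 27 and 60) and Ltf (30, 140, 121, 88 and 279). Whether the Cd177 reads came from neutrophils was not tested. Of the 29 lymphocyte genes, 1 was kept.

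Genes with near-identical copies took a large share of the widest spread. A copy at least 95% identical was found for 38 of the 147 genes (25.9%), against 8.43% of all genes with a mean of at least 3, and 23 of the 147 were pseudogenes (8.61% of the 267 pseudogenes kept). Of the 30 genes with the largest SD, 11 had such a copy, 8 of them pseudogenes. The pseudogene Gm12033 had the largest SD of all (3.92), at -2.79, 5.91, 4.70, 6.10 and 6.60. Gm5428, a copy of the ribosomal gene Rpl6, was at 3.76, 6.89, 5.86, 0.21 and 0.19 (SD 3.12), while Rpl6 itself stayed between 7.88 and 8.19. Gm7331 was at 1.05 in KPG1 4 and between 6.57 and 8.03 elsewhere. Gm14328, Gm13408, Rpl7a-ps11, Gm14138, Rpl31-ps13 and the Rps18-like Gm10260 had SDs from 1.70 to 2.17.

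Summing each of the 38 genes with its copies lowered the median SD from 1.39 to 0.479, and 28 of the 38 sums had an SD under 1. A sum in which 1 abundant copy dominates takes that copy's spread. The ribosomal protein gene Rps6 was at 7.72, 5.67, 7.65, 8.88 and 6.64 (SD 1.21) alone and had an SD of 0.63 summed with its 8 copies. Rpl23a had an SD of 1.00 alone and 0.48 summed. Lyz1, a lysozyme 95.8% identical to Lyz2, was at 3.81, 8.47, 3.57, 8.06 and 5.25 (SD 2.32), so it was high in KPG1 2 and KPG1 4 while Lyz2 was highest in KPG1 1 (12.62). Actg1, cytoplasmic gamma actin, kept its spread, with an SD of 1.15 alone and 1.09 summed and its highest value, 10.28, in KPG1 3. The cytochrome P450 gene Cyp2c68 also did, with 2.14 alone and 1.71 summed, at -0.08 in KPG1 1 and 3.98 or more in the others. For genes with copies, the split of reads between them is uncertain.

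Of the 42 gene lists, 32 had at least 5 genes kept, and 18 of these had scores spanning 0.5 or more between tumors (11 without KPG1 1). KPG1 1 was highest for 12 of the 32 lists and lowest for 6, and KPG1 3 was lowest for 10 and KPG1 5 for 10 (5 and 7 when scaled by total counts alone). The lists with a lowest score in KPG1 1 were led by gut lineage (-1.06), club and secretory airway (-0.84), erythroid and platelet (-0.80, 5 genes) and liver (-0.74, 5 genes). Those with a highest score there were led by endothelial (0.82), fibroblast and matrix (0.56), immediate early (0.47) and alveolar type 1 (0.42). Summed levels did not all follow the scores, and those of the gut, airway and liver lists were lowest in KPG1 3. In the liver list 2 of 5 genes were lowest in KPG1 1, and in the erythroid and platelet list 3 of 5 (30.9% of all genes were). Ttr spread most in the liver list (SD 1.75). Some lists share genes, among them Psmb9 in the interferon and MHC class I lists and Agr2 in the airway and gut lists. With 5 tumors, correlations between scores were not computed.

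The lists with the lowest median SD held metabolic genes, though not every metabolic list was among them. The 44 nuclear genes of the respiratory chain had a median SD of 0.164, the lowest of the lists. Cholesterol synthesis had 0.171 and bile acid and peroxisome genes 0.187, against 0.201 over all genes. Their scores spanned 0.23, 0.27 and 0.16 (0.10 for the last when scaled by total counts alone). Of the 50 bile acid and peroxisome genes, 1 had an SD of at least 1 (1.39% of all genes had). The median SD was higher for hypoxia and glycolysis (0.245) and for fatty acid and lipid droplet genes (0.304). The MAPK output scores spanned only 0.18, but the 18 genes kept had a median SD of 0.269, above that of all genes. Dusp5, on this list, had an SD of 1.31. The genes came in different orders, with Spry4 highest in KPG1 1 (6.43) and Spred1 lowest there (8.37). Within cholesterol synthesis, Idi1 spread most, at 5.65, 5.97, 4.76, 6.11 and 6.15. The 75 cytosolic ribosomal protein genes had a median SD of 0.238, and 38 of them were lowest in KPG1 1 (30.9% of all genes were). No counts fell on the 15 listed mitochondrially encoded genes in any library.

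**Figure D5:**
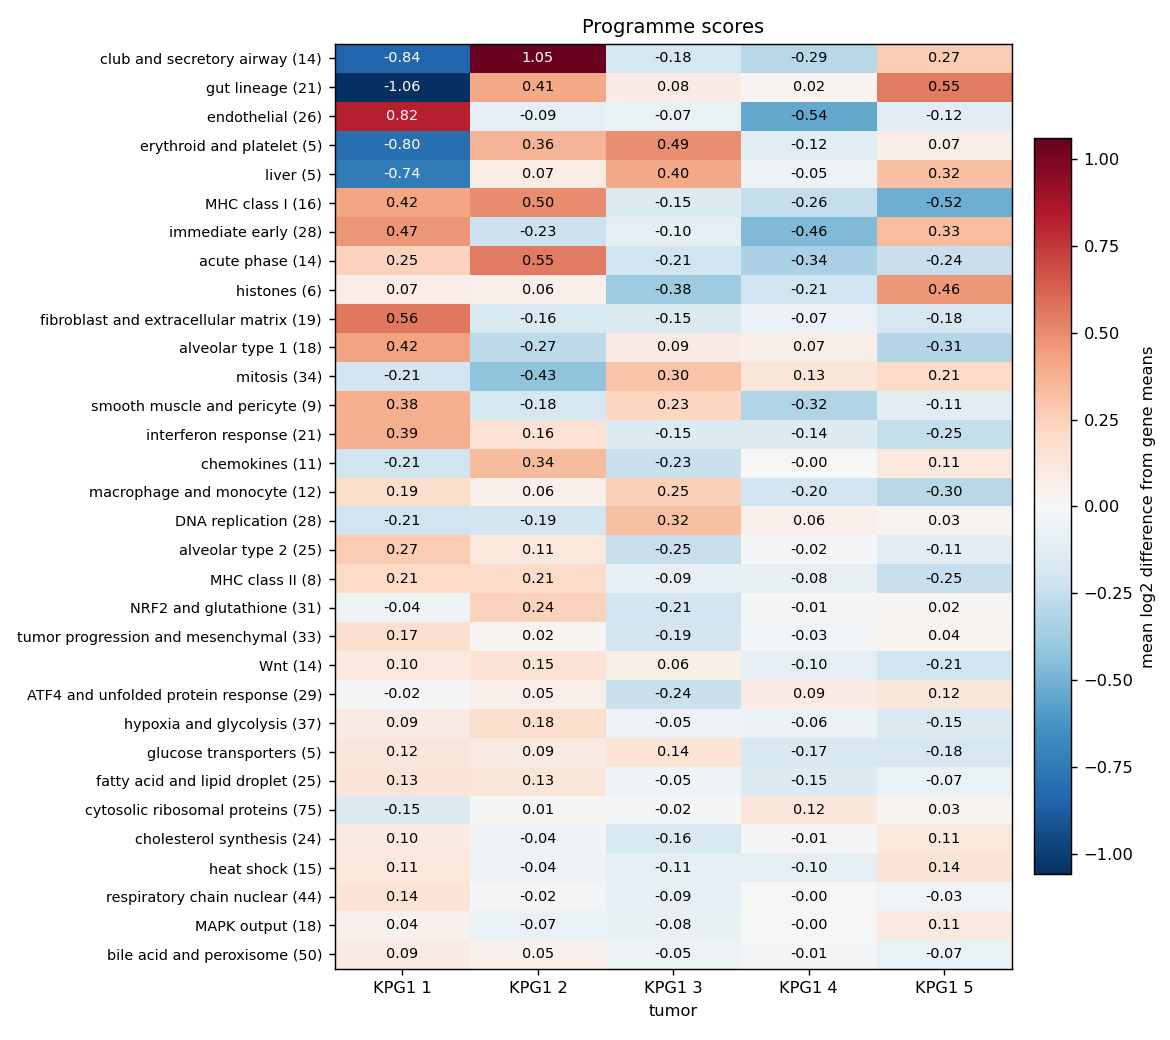
Rows are the 32 lists with at least 5 genes kept (number in brackets), ordered by the span of their scores, and columns are the 5 KPG1 tumors. Color and number give the mean log2 difference of the list's genes from their own means, from -1.06 (gut lineage, KPG1 1) to 1.05 (club and secretory airway, KPG1 2).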

How the data were processed

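Per the labels and the study's methods, a stranded mRNA kit gave libraries that were sequenced from one end, trimmed with Cutadapt, aligned to mm10 with HISAT2 and counted with featureCounts 1.4.4. The labels give Cutadapt as 1.4.2 and the methods give another version. The strand setting and the annotation release are not given in the sources used here. The deposited counts are whole reads per Ensembl gene (39017 genes). The deposited log2 values were made by the authors with TMM factors of edgeR over all 10 libraries and voom, as log2 CPM with 0.5 added to each count. They were recomputed from the counts to within 5.51e-14, and all 195085 counts in the joint file matched the files of single libraries exactly.

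Genes with a mean log2 of at least 3 were kept (10540), which have a mean of at least 323 counts per library. SD, pairwise differences, principal components and list scores were computed on the deposited values with Python 3.11.15, numpy 2.4.6 and pandas 2.3.3. The counting SD assumes Poisson counts. A gene with no count could have held up to 3 counts, a log2 value between -3.95 and -3.55. Reads carried no molecular identifiers, so such limits cover counting error only. Levels between genes were compared only after division by the exon length in GENCODE M21, which held 37607 of the gene IDs. Copies were searched with blastn 2.17.0 over the longest transcript of each gene, with at least 95% identity over at least 150 bases and at least 50% of the shorter transcript. Scaling alternatives used edgeR 4.0.16 and DESeq2 1.42.0 in R 4.3.3, and figures matplotlib 3.10.9. The spread measures were tested on simulated data.

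Gene lists (1183 symbols, 1180 found) were written from general knowledge. Genes were named by rule: Slc2a1 and Slc2a3, the 15 most abundant per length, the 30 with the largest SD, and up to 4 members with the largest SD of each list described. Others, such as single-tumor genes and lineage markers, were chosen after their values were seen. The 5 tumors and the lists were chosen with earlier results of these data known. No test was made, since all 5 libraries are 1 group. The alternatives tried were other scalings, a prior count of 5, other limits on the mean, the removal of counting variance, and leaving out each library.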

Additional observations from a re-analysis of the deposited data

Results flagged for a closer look

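Values are given here where the highest or lowest of the 5 tumors lay apart from the nearest other by over 0.71 of the whole range. Of 80 values searched (47 named genes, 32 list scores and the depth), 10 passed, and chance alone passes about 5% of such groups. All 9 genes came from the 30 with the largest SD, which were picked for wide spread, so they pass more easily than others. None of the 15 most abundant genes passed.

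In KPG1 1 the low values were Prom1 at 0.14 (others 4.84 to 5.87), Dlk1 at 4.77 (8.58 to 9.33), Cyp2c68 at -0.0764 (3.98 to 5.27), Tmc5 at 0.53 (4.10 to 5.26) and Ugt2b34 at 0.0220 (3.19 to 4.40). The pseudogenes Gm12033, at -2.79 (4.70 to 6.60), and Rpl31-ps13, at 1.67 (4.87 to 5.66), were low there too. The fibroblast and matrix score of KPG1 1 was high, at 0.56 against -0.18 to -0.07. Gm7331 was low in KPG1 4, at 1.05 (6.57 to 8.03), and Prg4 was high in KPG1 2, at 7.20 (2.25 to 3.03). The other 8 values all came from KPG1 1.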

How the results depend on the processing

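The scaling changed the counts little. With total counts, with TMM over the 5 KPG1 libraries or with DESeq2 size factors, the genes with an SD of at least 1 numbered 145 to 147, the first component held 46.4% to 46.8%, and 29 or 30 of the 30 genes with the largest SD were shared. Scaled by total counts, 31 of 32 lists kept their highest tumor and 24 their lowest, and with DESeq2 size factors 31 and 29. A prior count of 5 gave 143 genes. Removing counting variance gave 146. The limit on the mean mattered more. At 5 or more, 46 genes had an SD of at least 1 and the most distant pair differed at 282. At 0 or more these were 436 and 1580, and the first component held 42.6%. Low in KPG1 1 alone then numbered 12 and 116 genes, and 6 and 5 of the 30 genes with the largest SD were shared.

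Leaving out each library gave 90 to 161 genes with an SD of at least 1, 40.7% to 57.9% on the first component, 398 to 732 genes for the most distant pair and 11 to 18 lists spanning 0.5 or more. The lowest values came without KPG1 1, where 13 of the 30 genes with the largest SD were shared, against 21 to 27 without another library. Of the 15 most abundant genes, 14 or 15 stayed, and 12 were shared with the ranking by counts alone. The mean of Slc2a1 ranged from 5.52 to 5.70. Leaving out libraries for Slc2a1, and counting only genes without near-identical copies (109 genes, 48.1%) or protein-coding genes (121), were chosen after seeing the data. Of the SDs of the 30 genes without a library, 19 moved by over 1.5 times and 131 did not, and 180 values under the other settings did not. List spans moved by over 1.5 times in 24 of the values without a library and in 12 of the others, 2 of them under total counts (bile acid and peroxisome, and tumor progression and mesenchymal). Genes under a mean of 3 and tumors beyond these 5 are outside what was described, and 5 values give a loose SD. No paired analysis was possible because the results come from no test and describe 1 group.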

Other observations

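A pair of RNAs that shared no list and no chromosome had KPG1 1 and KPG1 4 on top, Lars2, a mitochondrial tRNA synthetase gene, at 8.12, 6.15, 6.07, 7.75 and 5.90, and Gm15564, annotated as antisense, at 6.23, 4.05, 3.68, 5.82 and 3.36. They were the 2 genes with this pattern among the 147 with an SD of at least 1, and were chosen after their values were seen. Of 6 histone genes kept, 2 were highest in KPG1 3 (20.0% of all genes were) and 3 in KPG1 5 (16.4% of all genes were). Several histone genes below the limit on the mean, though not all, had KPG1 1 and KPG1 5 on top. Hist1h1d was at 3.88, 0.91, 0.22, -0.30 and 5.00, and Hist1h2ac at 2.47, -0.54, -0.64, -1.89 and 3.12. The linker histone gene Hist1h1c was at 6.01, 5.29, 4.28, 3.70 and 6.72 and H2afz at 6.92, 6.57, 4.93, 7.26 and 5.89, with the lowest values in KPG1 4 and KPG1 3 respectively.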
